A study of Macaca mulatta with 22 samples.

Results

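Metaphase II (MII) oocytes and pronuclear (PN) embryos of the rhesus macaque (Macaca mulatta) are the stages on either side of fertilization. Of the 22 single-oocyte and single-embryo RNA-seq libraries of the series, 6 belong to these stages, 3 PN embryos and 3 MII oocytes, chosen by the stage in their labels. Each PN embryo came from intracytoplasmic sperm injection (ICSI), in which a sperm is placed directly into the egg, followed by culture in vitro. Each MII oocyte was taken after death from an animal given hormones to ripen several follicles at once. Stage, sperm injection, culture and collection route therefore cannot be told apart in this comparison. The labels give no donor, age or strain, so it is not known whether any of the 6 libraries share an animal. The p-values for single genes measure a spread between libraries, pooled over all 22 of the series, and not a spread between animals. The whole cell was lysed, and cDNA was made with a Clontech SMARTer kit for ultra-low input, whose priming on poly(A) tails limits the values to polyadenylated RNA. Expression is given in RPKM as deposited by the authors, a read count scaled by transcript length and by the mapped reads of the library. A change in the RNA content per cell is not measured on this scale.

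An ovulated oocyte waits at metaphase of the second meiotic division with a spindle in place and little or no transcription. Sperm entry or injection sets off calcium oscillations, which release the anaphase-promoting complex, end meiosis and trigger the cortical granules; a nucleus then forms around each parental genome, protamines are replaced by histones, and DNA is replicated. In primates the main wave of embryonic transcription comes several divisions later, so the RNA of the pronuclear stage is largely maternal, and its changes are known to come mostly from degradation, storage and changes of poly(A) tail length.

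Marker genes of oocytes and of other cell types were read in the libraries. Oocyte genes were abundant in all 6 libraries, so their presence does not tell the MII and PN labels apart. BTG4, an adaptor of the deadenylase complex, had 2291, 1714 and 2356 RPKM in PN libraries 1 to 3, against 3436, 3773 and 4379 RPKM in MII libraries 1 to 3, and the zona pellucida gene ZP2 had 163, 327 and 235 RPKM in PN libraries 1 to 3, against 222, 196 and 396 RPKM in MII libraries 1 to 3. Of 23 matched oocyte-defining genes, 22 passed the filter on low values; 2 of them were called higher at PN and 1 lower (13.6%, against 7.66% of all tested entries), and these are described below. An unadjusted p under 0.05 was reached by 21.2% of all tested entries, the background for the counts that follow. Of the sperm genes matched by symbol, PRM1, PRM2, PRM3, TNP1, TNP2, SMCP and PLCZ1 were listed at 0 in all 6 libraries. A listed 0 is not evidence of absence in this table, since 2 ribosomal protein genes were also listed at 0 in all 6. Of 9 tested sperm genes none was called by limma, with 2 at an unadjusted p under 0.05. The blood genes HBA1, PTPRC, CD14 and LYZ were also listed at 0 in all 6, and of 3 tested blood genes none was called, with 1 at an unadjusted p under 0.05. For cumulus and granulosa cell markers, the summed RPKM of the 24 matched markers was 81.8, 73.5 and 90.5 in PN libraries 1 to 3, against 237.7, 187.7 and 231.0 in MII libraries 1 to 3. The groups did not overlap. Most of that sum was SERPINE2, a secreted protease inhibitor, with 64.7, 49.5 and 70.9 RPKM in PN libraries 1 to 3, against 174, 142 and 108 RPKM in MII libraries 1 to 3, and TNFAIP6, a matrix protein of the expanding cumulus, with 13.4, 9.94 and 7.57 RPKM in PN, against 38.4, 21.1 and 90.4 RPKM in MII libraries. Of 8 tested markers, 4 were at an unadjusted limma p under 0.05, all 4 lower at PN, against 21.2% of all tested entries. The groups did not overlap in 7 of the 8, against 29.3% of all tested entries. The median log2 change was -1.11, and 2 of the 8 had a log2 change above 0. Of the 8 tested markers 1 was called, VIM, the mesenchymal filament protein, with 0.160, 3.41 and 1.68 RPKM in PN, against 13.2, 11.8 and 11.7 RPKM in MII libraries (log2 change -2.46, SE 0.66, limma adjusted p = 0.0274). The VIM call ended in 5 of 6 leave-one-out fits, all but without PN library 2 (adjusted p 0.0621 to 0.119), without the filter on low values (0.0563), with median-of-ratios scaling (0.0795) and in the fit of MII and PN libraries alone (0.0621). The defining genes FOXL2, AMH, AMHR2, STAR, INHA and PTX3 were at 0 in all 6 libraries, and FSHR stayed below 0.4 RPKM. In all, 15 of the 24 markers were under 1 RPKM in all 6 libraries. A lower level in the oocyte itself, fewer attached somatic cells and less RNA per such cell cannot be told apart, and their part in the results below was not tested.

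The libraries themselves differed in depth and spread. Low RPKM values of short features fall on multiples of the value of 1 read, and from these the depth was estimated at 9910000, 7280000 and 10670000 reads in PN libraries 1 to 3 and 20460000, 17070000 and 21490000 reads in MII libraries 1 to 3. The PN libraries were all shallower than the MII libraries. More entries reached 1 RPKM at PN, with 8774, 9784 and 9058 of the 35468 in PN libraries 1 to 3 against 8566, 8048 and 8441 in MII libraries 1 to 3. The means were 9205 ± 521 and 8352 ± 270 (SD, n = 3 each; exact permutation test, 2-sided, p = 0.1, the smallest that 3 against 3 allows). Summed RPKM was lower in every PN library, at 404100 ± 17630 in PN embryos against 512100 ± 26270 in MII oocytes (SD, n = 3 each; exact permutation p = 0.1). PN library 2 stood apart. On log2(RPKM + 1) across all tested entries, which are not independent replicates, Pearson's r was 0.894 to 0.956 between PN libraries, 0.945 to 0.960 between MII libraries and 0.827 to 0.892 between a PN and an MII library. Depth and PN library 2 move with the stage contrast, and their part in it was not tested.

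**Figure D1:**
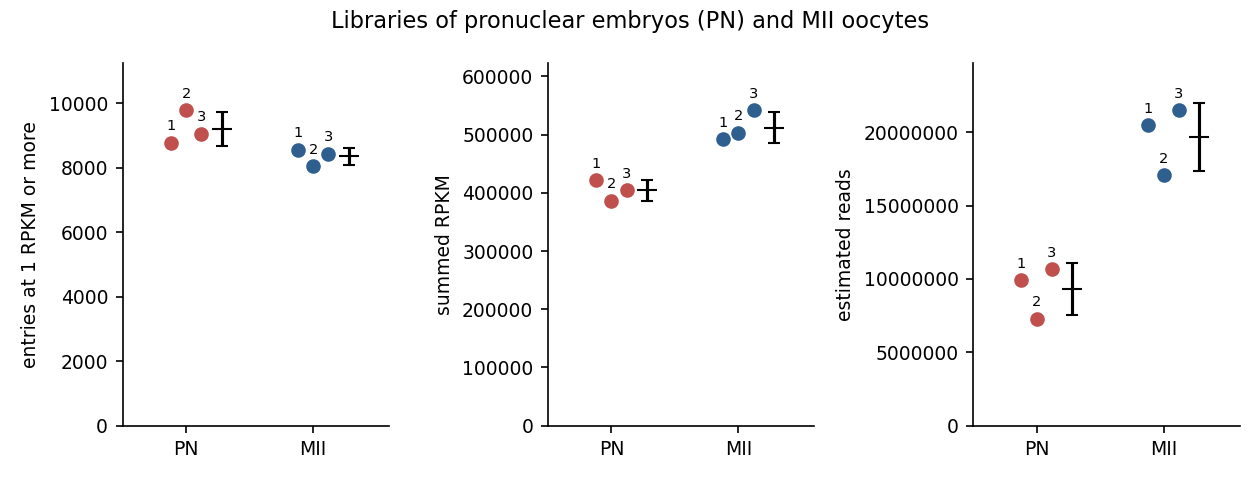
Entries at 1 RPKM or more, summed RPKM, and sequencing depth estimated from the steps of low values, for PN embryos (left in each panel) and MII oocytes (right). Points are libraries with their replicate number, and bars are the mean and SD of 3 libraries; every PN library detected more entries at a lower estimated depth than any MII library.

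The contrast between PN embryos and MII oocytes was tested with limma on log2(RPKM + 1) for the 14312 entries that reached 1 RPKM in 2 or more of the 22 libraries. At a Benjamini-Hochberg adjusted p under 0.05 taken over all of them, 1097 entries changed (7.66%). Of these, 681 were higher at PN (4.76%) and 416 were lower (2.91%). The median log2 change over all tested entries was 0.06. Increases and decreases were of like size, with a median size on the log2 scale of 1.95 among the higher entries and 1.96 among the lower. The higher entries were mostly scarce in MII oocytes: 363 of the 681 averaged under 1 RPKM at MII, and 314 averaged 10 RPKM or more at PN. Being called higher at PN favours a low MII level, and of the 416 lower entries 156 averaged under 1 RPKM at PN. Decreases reached further into abundant RNA, with 254 of the 416 at 10 RPKM or more at MII. The 3 PN libraries did not overlap the 3 MII libraries in 4199 of the tested entries (29.3%), so the separation given for many genes below is common and is not a call in itself.

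Among the most abundant transcripts the balance of calls depended on the stage used for ranking. Of the 100 entries with the highest mean RPKM at MII, 15 were called lower at PN and none higher, 85 had a negative log2 change, and their median log2 change was -0.85. Being ranked on MII levels favours a lower value at PN in such a list. Ranked on PN levels in place of MII levels, the top 100 held 5 entries called higher and 3 called lower, with a median log2 change of -0.17. The rankings shared 69 entries. TUBA1C, an alpha-tubulin, was the most abundant called gene in either ranking, with 2646, 1883 and 2756 RPKM in PN, against 6557, 6557 and 5432 RPKM in MII libraries. Its PN libraries all lay below the MII libraries (log2 change -1.36, SE 0.39, limma adjusted p = 0.0359). The TUBA1C call ended without any 1 of the 6 libraries (adjusted p 0.0635 to 0.133) and without the filter on low values (0.0557). PTTG1, which encodes securin, the inhibitor of separase, was more abundant still and did not pass, with 21200.0, 17521 and 16158 RPKM in PN, against 19318, 28254 and 28422 RPKM in MII libraries (limma adjusted p = 0.817).

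**Figure D2:**
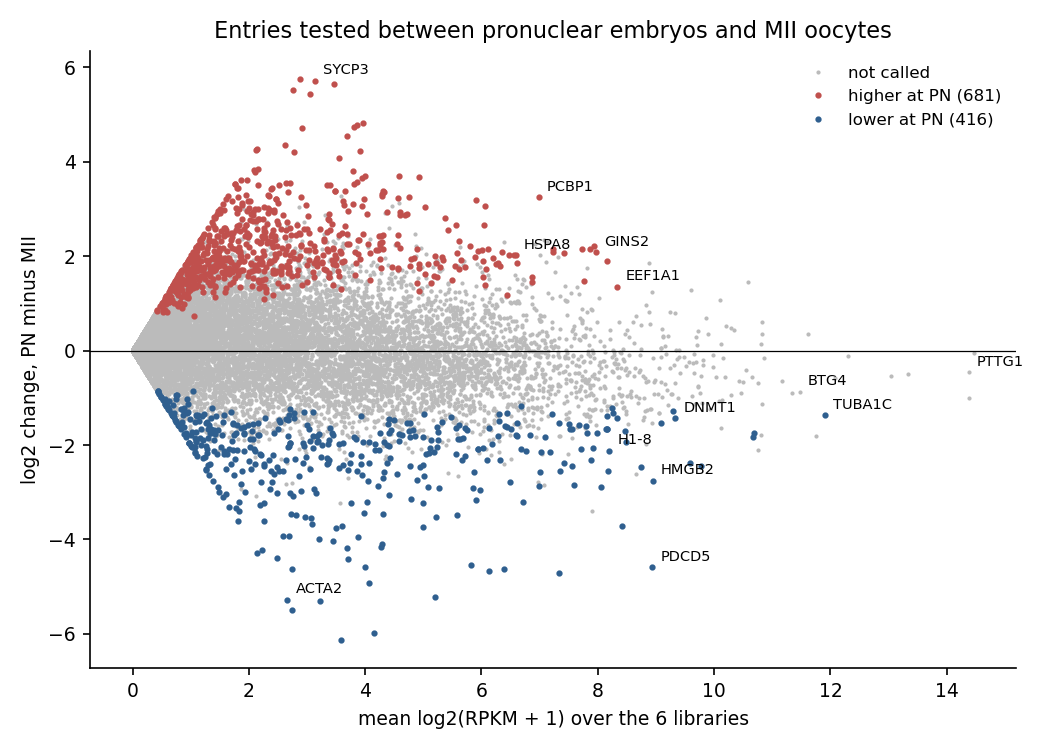
Log2 change, PN minus MII, against mean log2(RPKM + 1) over the 6 libraries, 1 point for each of the 14312 tested entries. The 681 entries called higher at PN lie mostly at low to middle levels, while the 416 called lower extend to abundant transcripts such as TUBA1C, HMGB2 and DNMT1.

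The calls rest unequally on single libraries. Of the 681 higher entries 244 were called again without each of the 6 libraries in turn, and of the 416 lower entries 175 were. The largest loss came without MII library 1 (582 called, 352 higher and 230 lower). Without PN library 2, 671 were called, 373 higher and 298 lower, and this library was the highest PN library in 59.9% of the higher entries, against 47.9% of all tested entries. The other counts of calls were 697 without MII library 2, 663 without MII library 3, 907 without PN library 1 and 747 without PN library 3. With median-of-ratios scaling the count was 719, of which 417 were higher and 302 lower, so that 58.0% of calls were increases in place of 62.1%. Without morula library 2, which enters only through the shared spread, 1664 were called, 976 higher and 688 lower.

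Part of the change separated stages that do not follow each other. In 383 of the tested entries (2.68%), all libraries of germinal vesicle (GV) and MII oocytes lay on one side of all libraries of metaphase I (MI) oocytes and PN, 2-cell and 4-cell embryos. Of these, 242 were among the 1097 called here, 96 higher and 146 lower, which is 22.1% of the 1097 calls. Without them 855 calls remained, 585 higher and 270 lower. In 52 entries the gap was at least 1 on the log2 scale, and all 52 were called, 24 higher and 28 lower. The definition itself requires PN and MII libraries not to overlap, which held for 29.3% of tested entries. A high share of calls among such entries follows in part from that definition. Of these 52, 26 spanned under 1000 bp from start to end in the deposited coordinates. The share of such short entries was 9.69% among entries higher at PN, 15.9% among those lower and 6.89% among all tested entries. This grouping was noticed in the values and is a description. The labels give no batch or processing date for any library, so stage and an unlabelled grouping of the libraries cannot be told apart for these entries. Genes of this kind are termed alternating, since their MII and PN levels differ in the same way as their GV and MI levels. Those named below that were higher at PN are SYCP3, RPS29, RPL19 entry ENSMMUG00000004235, RPS3A, HJURP, BMP15, NLRP8, PCBP1 and GDI2, and the uncalled BTF3 entry ENSMMUG00000022291. Those lower at PN are ACTA2, STC1, PLEC entry IMMRNTR4529, C15H9ORF11, MRPL30, UBE2C, HMGB2, LIG1, H1-8, RPL19 entry ENSMMUG00000000294, RPL32, RPL23, RPS18, RPL13, RPL14, RPL37, HNRNPA2B1, HNRNPK, PSMA7, UQCRB, NDUFB6, COX7A2, NFKBIA and SRP19.

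The changes described next are the 12 largest in each direction among called entries that have an ENSMMUG identifier and a symbol, do not overlap between groups and average 10 RPKM or more in the higher stage. Among the 12 increases were genes of meiosis, autophagy, ribosomes and RNA processing. SYCP3 (ENSMMUG00000020879, chr11:102922141-102933134), a protein of the axial element of the synaptonemal complex, had 61.0, 90.2 and 45.1 RPKM in PN, against 0.792, 0 and 0 RPKM in MII libraries. It was near or at 0 in MII oocytes and high in every PN embryo (log2 change 5.72, SE 0.72, limma adjusted p = 8.52e-05). SYCP3 is alternating, at 0.024 RPKM on average in GV and 32.4 RPKM in MI oocytes. MAP1LC3C (ENSMMUG00000031167, chr1:215039648-215042480), a member of the LC3 family that is lipidated on autophagosomes, had 73.6, 74.1 and 101 RPKM in PN, against 0, 6.23 and 2.53 RPKM in MII libraries. The lowest PN library was far above the highest MII library (log2 change 4.82, SE 0.93, limma adjusted p = 0.00354). DDX31 (ENSMMUG00000004590, chr15:5971190-6004627), a DEAD-box RNA helicase, had 13.2, 19 and 13.5 RPKM in PN, against 0.404, 0 and 0.0190 RPKM in MII libraries, all PN libraries above all MII libraries (log2 change 3.83, SE 0.55, limma adjusted p = 0.000237). ZNF57, a zinc finger gene, ranged widely among PN embryos, with 19.1, 5.95 and 33.5 RPKM in PN, against 0.593, 0 and 0 RPKM in MII libraries, yet did not overlap the MII oocytes (log2 change 3.85, SE 0.72, limma adjusted p = 0.0026).

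The remaining large increases were of varied function. PAG1, a membrane adaptor that recruits the kinase CSK, had 9.22, 43.8 and 20.03 RPKM in PN, against 0.523, 1.28 and 0.698 RPKM in MII libraries (log2 change 3.56, SE 0.49, limma adjusted p = 0.000168). CARHSP1, a cold-shock domain RNA-binding protein, had 4.30, 30.8 and 11.5 RPKM in PN, against 0, 0 and 0.138 RPKM in MII libraries (log2 change 3.62, SE 0.68, limma adjusted p = 0.00281). In both genes PN library 2 was the highest library, and the groups did not overlap. OTUB1, a deubiquitinase, had 29.8, 126 and 34.0 RPKM in PN, against 1.57, 3.08 and 3.79 RPKM in MII libraries (log2 change 3.80, SE 1.06, limma adjusted p = 0.0344). PN library 2 was far above the others. The OTUB1 call ended in 5 of 6 leave-one-out fits, all but without PN library 1 (adjusted p 0.0618 to 0.155), without the filter on low values (0.0777) and with median-of-ratios scaling (0.057). CDK5, an atypical cyclin-dependent kinase, had 59.8, 239 and 85.6 RPKM in PN, against 4.49, 4.78 and 18.1 RPKM in MII libraries (log2 change 3.67, SE 0.86, limma adjusted p = 0.0127). The CDK5 call ended without MII library 1 (adjusted p = 0.063) or MII library 2 (adjusted p = 0.0555) or PN library 2 (adjusted p = 0.0736) and in the fit of MII and PN libraries alone (0.0585). PHB1, the mitochondrial prohibitin, had 34.1, 92.0 and 49.7 RPKM in PN, against 3.06, 1.20 and 8.22 RPKM in MII libraries (log2 change 3.66, SE 0.95, limma adjusted p = 0.0236). The PHB1 call ended in 4 of 6 leave-one-out fits, all but without MII library 3 or PN library 1 (adjusted p 0.0589 to 0.108) and without the filter on low values (0.0557). LSM7, a subunit of the LSM ring that binds oligoadenylated mRNA ends and U6 snRNA, had 10.2, 20.4 and 15.6 RPKM in PN, against 0, 0 and 0.553 RPKM in MII libraries (log2 change 3.77, SE 0.95, limma adjusted p = 0.0201). The LSM7 call ended in 4 of 6 leave-one-out fits, all but without MII library 3 or PN library 1 (adjusted p 0.0572 to 0.0774) and with median-of-ratios scaling (0.064). The ribosomal protein genes RPS29 and RPL19 complete this set and are given with the other ribosomal proteins. In all 12 genes the lowest PN library was above the highest MII library, as the selection required.

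By the same selection, the 12 decreases spanned a smooth muscle actin, an apoptosis-linked factor, secreted or surface proteins and a centromere protein. ACTA2 (ENSMMUG00000009341, chr9:88514985-88574330), smooth muscle alpha-actin, had 0.0560, 0 and 0 RPKM in PN, against 46.7, 35.2 and 34.6 RPKM in MII libraries. It was at or near 0 in PN embryos and plentiful in every MII oocyte (log2 change -5.28, SE 0.37, limma adjusted p = 6.88e-08). ACTA2 is alternating, at 9.67 RPKM on average in GV and 4.97 RPKM in MI oocytes. PDCD5 (ENSMMUG00000015395, chr19:39098358-39104793), a small nuclear protein linked to programmed cell death, was the most abundant of the 12, with 93.3, 121 and 86.0 RPKM in PN, against 3317, 843 and 4905 RPKM in MII libraries. MII library 2 was low for its group but still above all PN embryos (log2 change -4.58, SE 0.60, limma adjusted p = 0.000111). VTCN1, a B7 family surface protein, had 2.03, 0.749 and 5.57 RPKM in PN, against 58.3, 92.5 and 85.7 RPKM in MII libraries (log2 change -4.58, SE 0.48, limma adjusted p = 1.06e-05). OIP5, a subunit of the Mis18 complex that licenses centromeres for new CENP-A, had 3.29, 1.12 and 0.610 RPKM in PN, against 23.7, 28.0 and 31.9 RPKM in MII libraries (log2 change -3.55, SE 0.58, limma adjusted p = 0.000906). Both were low in each PN embryo and did not overlap MII. In 2-cell libraries 1 and 2, VTCN1 was at 70.6 and 85.9 RPKM, and OIP5 at 20.9 and 3.71 RPKM. Their 4-cell means were 0.927 RPKM for VTCN1 and 0.759 RPKM for OIP5.

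FABP9, a fatty acid binding protein of the male germ line, had 2.02, 0 and 6.57 RPKM in PN, against 27.8, 114 and 66.2 RPKM in MII libraries (log2 change -4.42, SE 0.92, limma adjusted p = 0.00602). The FABP9 call ended in the fit of MII and PN libraries alone (adjusted p = 0.0612). GPHA2, a glycoprotein hormone alpha subunit, had 21.0, 2.50 and 16.5 RPKM in PN, against 97.8, 105 and 194 RPKM in MII libraries (log2 change -3.52, SE 0.66, limma adjusted p = 0.00269). The GPHA2 call ended in the fit of MII and PN libraries alone (adjusted p = 0.0719). Both were lower in each PN embryo than in any MII oocyte. IFI27, an interferon-inducible gene, had 1.61, 3.29 and 1.62 RPKM in PN, against 67.9, 42.7 and 23.3 RPKM in MII libraries (log2 change -3.76, SE 0.62, limma adjusted p = 0.000933). The IFI27 call ended with a pseudocount of 0.1 (adjusted p = 0.056). C15H9ORF11, the macaque counterpart of a human open reading frame with no role named here, had 4.90, 5.45 and 1.49 RPKM in PN, against 102, 49.8 and 104 RPKM in MII libraries (log2 change -4.17, SE 0.54, limma adjusted p = 0.000111). MRPL30, of the large mitochondrial ribosomal subunit, had 1.68, 3.27 and 8.25 RPKM in PN, against 66.8, 92.9 and 83.9 RPKM in MII libraries (log2 change -4.11, SE 1.05, limma adjusted p = 0.0214). The MRPL30 call ended in 5 of 6 leave-one-out fits, all but without PN library 3 (adjusted p 0.0582 to 0.0754), with a pseudocount of 0.1 (0.112) and without the filter on low values (0.0523). C15H9ORF11 and MRPL30 are alternating. BTF3, a subunit of the nascent polypeptide-associated complex, fell in entry ENSMMUG00000012570 (chr4:141622753-141623327), which had 5.26, 11.0 and 7.81 RPKM in PN, against 90.3, 126 and 132 RPKM in MII libraries (log2 change -3.73, SE 0.84, limma adjusted p = 0.01). A further BTF3 entry, ENSMMUG00000022291, had 1502, 1152 and 1038 RPKM in PN, against 404, 558 and 556 RPKM in MII libraries, higher in every PN library but not called. Whether reads were split between the BTF3 entries was not tested.

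**Figure D3:**
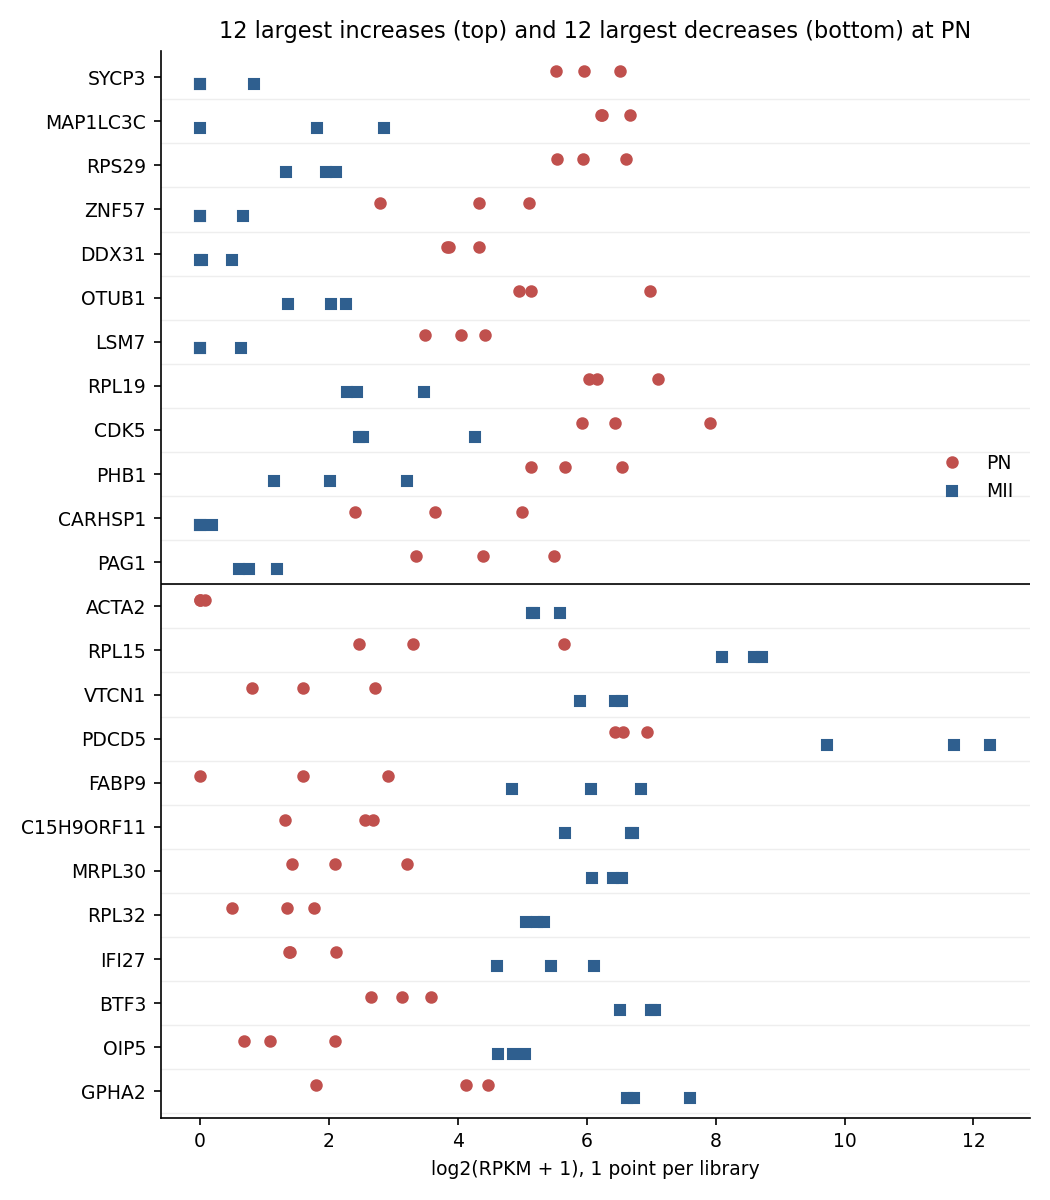
Log2(RPKM + 1) of the 12 selected genes with the largest increases at PN (above the line) and the 12 with the largest decreases (below it), 1 point per library, PN above MII in each row. No gene of the 24 has overlapping groups, and PN embryos differ widely among themselves in RPL15, FABP9, GPHA2 and CARHSP1.

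Entries near 0 at one stage and not at the other were counted. There were 6 entries under 0.5 RPKM in all 7 oocyte libraries and at 2 RPKM or more in all 3 PN libraries, of which 2 carry a symbol. USP17L2, a deubiquitinase gene of a multicopy family, had 3.74, 9.93 and 11.2 RPKM in PN, against 0, 0 and 0 RPKM in MII libraries and is listed at 0 in all MII oocytes. VPS37B, an ESCRT-I subunit, had 2.56, 2.52 and 2.56 RPKM in PN, against 0.438, 0 and 0.0700 RPKM in MII libraries. The reverse, at 2 RPKM or more in all 3 MII libraries and under 0.5 RPKM in all 3 PN libraries, held for 31 entries. Besides ACTA2 these included STC1, a secreted glycoprotein hormone, with 0.0290, 0 and 0 RPKM in PN, against 16.3, 4.90 and 8.76 RPKM in MII libraries, and TDRD12, a Tudor protein of the piRNA pathway, with 0.423, 0.237 and 0.416 RPKM in PN, against 2.22, 2.61 and 2.67 RPKM in MII libraries. ARPP21, an RNA-binding phosphoprotein, had 0.218, 0 and 0 RPKM in PN, against 5.62, 3.89 and 4.75 RPKM in MII libraries. Among the entries with IMMRNTR identifiers, whose names come from the deposited table and cannot be checked, IMMRNTR4529, named PLEC, was listed at 0 in all PN libraries and had 86.7, 10.9 and 86.6 RPKM in MII libraries 1 to 3. The counts have no test, and the reverse set compares with only 3 oocyte libraries while the first compares with 7.

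Gene lists were then read by role against the background of 7.66% of tested entries called; a list is described by its counts, and no list was tested as a whole. In the list for the calcium signal and exit from metaphase II, 1 of 23 tested members was called, lower at PN (4.35%; median log2 change 0.02). CALM2, a calmodulin gene, was abundant and did not pass, with 1506, 1007 and 1224 RPKM in PN, against 3146, 1788 and 3426 RPKM in MII libraries (limma adjusted p = 0.0757). ITPR1, the calcium release channel of the egg, had 6.12, 10.3 and 5.57 RPKM in PN, against 4.80, 8.24 and 4.38 RPKM in MII libraries, and FBXO43, the inhibitor of the anaphase-promoting complex known as EMI2, had 16.2, 7.64 and 24.4 RPKM in PN, against 35.0, 31.4 and 19.3 RPKM in MII libraries. ITPR1 levels overlapped between the groups, and those of FBXO43 did too (limma adjusted p = 0.784 and limma adjusted p = 0.296). MOS, the kinase upstream of MAP kinase in metaphase arrest, had 0.333, 6.34 and 1.03 RPKM in PN, against 0.268, 1.16 and 0.409 RPKM in MII libraries and did not pass (limma adjusted p = 0.301). PLCZ1, the phospholipase that sperm deliver to start calcium release, was at 0 in all 6 libraries.

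Of 54 tested genes for M phase kinases, cyclins, the anaphase-promoting complex and the spindle, 1 rose and 2 fell (5.56%; median log2 change -0.23). STAG3, a meiotic cohesin subunit, had 4.30, 6.29 and 6.92 RPKM in PN, against 1.12, 0.906 and 1.20 RPKM in MII libraries (log2 change 1.70, SE 0.44, limma adjusted p = 0.022). The STAG3 call ended in 5 of 6 leave-one-out fits, all but without PN library 1 (adjusted p 0.0567 to 0.0767) and with a pseudocount of 0.1 (0.112). UBE2C, the ubiquitin-conjugating enzyme that works with the anaphase-promoting complex, had 45.4, 79.1 and 63.9 RPKM in PN, against 551, 149 and 249 RPKM in MII libraries (log2 change -2.14, SE 0.59, limma adjusted p = 0.0325). The UBE2C call ended in 5 of 6 leave-one-out fits, all but without MII library 2 (adjusted p 0.0591 to 0.171), without the filter on low values (0.0632) and in the fit of MII and PN libraries alone (0.0869). The entry for UBE2C, ENSMMUG00000031435, spans under 1000 bp and is alternating. ANAPC1, the largest subunit of that complex, had 4.10, 4.22 and 1.98 RPKM in PN, against 14.9, 16.4 and 14.3 RPKM in MII libraries (log2 change -1.91, SE 0.55, limma adjusted p = 0.0394). The ANAPC1 call ended without any 1 of the 6 libraries (adjusted p 0.0642 to 0.141), with a pseudocount of 0.1 (0.103), without the filter on low values (0.0687) and with median-of-ratios scaling (0.108). AURKA, a spindle pole kinase, was tight within groups and did not overlap, with 1125, 1180.4 and 1147 RPKM in PN, against 1892, 1775 and 1812 RPKM in MII libraries, yet did not pass (limma adjusted p = 0.346). CCNB1, cyclin B1, had 892, 442 and 722 RPKM in PN, against 468, 685 and 468 RPKM in MII libraries, CDC20, an activator of the complex, had 67.5, 55.7 and 78.9 RPKM in PN, against 171, 112 and 105 RPKM in MII libraries, and AURKC, the germ cell Aurora kinase, had 335, 244 and 285 RPKM in PN, against 470.3, 286 and 302 RPKM in MII libraries. None of the 3 passed (limma adjusted p = 0.764, limma adjusted p = 0.367 and limma adjusted p = 0.836). PLK1 had 6.20, 9.70 and 6.57 RPKM in PN, against 0.766, 0.281 and 0.892 RPKM in MII libraries, without overlap, at limma adjusted p = 0.0661.

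Outside the lists, other spindle and chromosome genes were picked out after their values were seen. HMGB2, a chromatin-bound high mobility group protein, had 199, 142 and 235 RPKM in PN, against 1511, 1023 and 1351 RPKM in MII libraries, lower in each PN embryo (log2 change -2.76, SE 0.40, limma adjusted p = 0.000305). UBE2T, the ubiquitin-conjugating enzyme of the Fanconi anemia pathway, had 81.6, 42.5 and 99.6 RPKM in PN, against 377, 620.2 and 582 RPKM in MII libraries, with the same separation (log2 change -2.86, SE 0.42, limma adjusted p = 0.000291). SMC4, a condensin subunit, had 90.2, 75.3 and 159 RPKM in PN, against 309, 356 and 312 RPKM in MII libraries (log2 change -1.65, SE 0.36, limma adjusted p = 0.00813). These 3 decreases were called without each of the 6 libraries. TACC3, which stabilises spindle microtubules, had 6.12, 19.7 and 13.3 RPKM in PN, against 197, 25.8 and 98.9 RPKM in MII libraries (log2 change -2.66, SE 0.62, limma adjusted p = 0.0125), with MII library 2 near the PN range. The TACC3 call ended without MII library 1 (adjusted p = 0.0824) or MII library 3 (adjusted p = 0.0524) or PN library 1 (adjusted p = 0.0593) and in the fit of MII and PN libraries alone (0.145). KIF2C, a microtubule depolymerase, had 10.9, 12.1 and 10.4 RPKM in PN, against 53.1, 20.8 and 49.1 RPKM in MII libraries (log2 change -1.69, SE 0.41, limma adjusted p = 0.016). The KIF2C call ended without MII library 1 (adjusted p = 0.0871) or MII library 3 (adjusted p = 0.0775) or PN library 3 (adjusted p = 0.0526) and in the fit of MII and PN libraries alone (0.0742). In the other direction, HJURP, the chaperone of centromeric histone CENP-A, had 124, 48.6 and 146 RPKM in PN, against 21.3, 27.4 and 18.9 RPKM in MII libraries (log2 change 2.06, SE 0.53, limma adjusted p = 0.023). The HJURP call ended in 4 of 6 leave-one-out fits, all but without MII library 2 or PN library 2 (adjusted p 0.0745 to 0.101), with a pseudocount of 0.1 (0.121) and in the fit of MII and PN libraries alone (0.0715). KPNA2, an importin alpha, in entry ENSMMUG00000018256 had 397, 485 and 450.0 RPKM in PN, against 154, 48.7 and 130.1 RPKM in MII libraries (log2 change 2.14, SE 0.48, limma adjusted p = 0.00942). The KPNA2 call ended without MII library 2 (adjusted p = 0.0602) and in the fit of MII and PN libraries alone (0.067). LMNB1, lamin B1 of the nuclear lamina, had 8.04, 3.04 and 4.59 RPKM in PN, against 0.634, 1.54 and 0.439 RPKM in MII libraries (log2 change 1.70, SE 0.46, limma adjusted p = 0.0281). The LMNB1 call ended in 4 of 6 leave-one-out fits, all but without MII library 2 or PN library 2 (adjusted p 0.0652 to 0.11), with a pseudocount of 0.1 (0.136), with median-of-ratios scaling (0.0727) and in the fit of MII and PN libraries alone (0.0742).

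Across the lists for cortical granules, the egg surface, and the zona and secreted factors, 2 genes were called. None of 21 tested cortical granule genes was called by limma in either direction, with 7 at an unadjusted p under 0.05 (33.3%, against 21.2% of all tested entries), 9 without overlap between groups (42.9%, against 29.3%) and a median log2 change of 0.34. RAB27A, a small GTPase of granule docking, had 31.3, 54.7 and 32.2 RPKM in PN, against 26.0, 26.4 and 39.1 RPKM in MII libraries and RAB11A, of recycling vesicles, had 56.3, 32.5 and 55.4 RPKM in PN, against 158, 58.1 and 206 RPKM in MII libraries (limma adjusted p = 0.713 and limma adjusted p = 0.0962). Among 9 tested genes of the egg surface, 1 rose (11.1%). UPK3A, uroplakin 3a, which has been studied as a sperm receptor component in Xenopus eggs, had 2.72, 6.79 and 1.79 RPKM in PN, against 0, 0.0660 and 0.105 RPKM in MII libraries (log2 change 2.03, SE 0.42, limma adjusted p = 0.00554). The UPK3A call ended in the fit of MII and PN libraries alone (adjusted p = 0.0573). CD9, the tetraspanin required for sperm fusion in mouse eggs, had 27.6, 13.9 and 30.8 RPKM in PN, against 32.4, 12.1 and 40.3 RPKM in MII libraries and did not pass (limma adjusted p = 0.988).

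Of 8 tested zona and secreted factor genes, 1 rose (12.5%; median log2 change -0.02). BMP15, an oocyte-secreted growth factor of the TGF-beta family, had 155, 164 and 126 RPKM in PN, against 45.1, 31.4 and 51.9 RPKM in MII libraries, higher in all PN embryos (log2 change 1.79, SE 0.48, limma adjusted p = 0.0264). BMP15 is alternating. The BMP15 call ended without any 1 of the 6 libraries (adjusted p 0.0504 to 0.111) and with a pseudocount of 0.1 (0.119). GDF9, its close relative, in entry IMMRNTR2410 had 135, 184 and 141 RPKM in PN, against 48.5, 56.8 and 89.6 RPKM in MII libraries, also without overlap but short of the threshold (limma adjusted p = 0.0792). The zona genes ZP2, with the values above, and ZP3, with 286, 561 and 377 RPKM in PN, against 564, 512 and 1619 RPKM in MII libraries, did not pass (limma adjusted p = 0.967 and limma adjusted p = 0.462). Of 14 tested genes of the subcortical maternal complex and its NLRP relatives, 1 rose (7.14%; median log2 change 0.44). NLRP8 had 164, 106 and 97.6 RPKM in PN, against 24.2, 27.0 and 24.0 RPKM in MII libraries (log2 change 2.21, SE 0.50, limma adjusted p = 0.00981). NLRP8 was tight among MII oocytes, is alternating, and was called without each library. NLRP5, or MATER, had 31.5, 52.5 and 52.4 RPKM in PN, against 29.0, 29.0 and 48.0 RPKM in MII libraries, PADI6 had 38.5, 70.6 and 62.3 RPKM in PN, against 52.3, 55.3 and 84.3 RPKM in MII libraries, TLE6 had 6.16, 34.3 and 10.1 RPKM in PN, against 10.4, 10.7 and 22.5 RPKM in MII libraries and OOEP had 1228, 824 and 605 RPKM in PN, against 416, 298 and 930.1 RPKM in MII libraries. These core members overlapped between groups and did not pass (limma adjusted p = 0.818, limma adjusted p = 0.918, limma adjusted p = 1 and limma adjusted p = 0.501). TCL1B, an oocyte-enriched AKT co-activator of the TCL1 family, had 359.8, 999 and 456 RPKM in PN, against 115, 121 and 225 RPKM in MII libraries (log2 change 1.89, SE 0.47, limma adjusted p = 0.0188). The TCL1B call ended without MII library 1 (adjusted p = 0.0835) or MII library 2 (adjusted p = 0.0737) or PN library 2 (adjusted p = 0.102) and in the fit of MII and PN libraries alone (0.0931).

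Of 36 tested genes of maternal mRNA deadenylation and decay, 3 rose and 0 fell (8.33%; median log2 change 0.20). CNOT1, the scaffold of the CCR4-NOT deadenylase, had 11.5, 12.8 and 16.2 RPKM in PN, against 0.632, 0.778 and 3.80 RPKM in MII libraries (log2 change 2.58, SE 0.67, limma adjusted p = 0.0242). The CNOT1 call ended in 4 of 6 leave-one-out fits, all but without MII library 3 or PN library 1 (adjusted p 0.0664 to 0.105), without the filter on low values (0.0509) and with median-of-ratios scaling (0.0795). YTHDF3, a reader of N6-methyladenosine, had 26.1, 10.5 and 9.85 RPKM in PN, against 3.48, 3.56 and 2.90 RPKM in MII libraries (log2 change 1.80, SE 0.42, limma adjusted p = 0.0123). The YTHDF3 call ended without PN library 1 (adjusted p = 0.0626) and in the fit of MII and PN libraries alone (0.0694). UPF1, the helicase of nonsense-mediated decay, had 1.73, 4.86 and 2.67 RPKM in PN, against 0.28, 0.252 and 0.4 RPKM in MII libraries (log2 change 1.57, SE 0.39, limma adjusted p = 0.0178). The UPF1 call ended without MII library 1 (adjusted p = 0.0605) or MII library 2 (adjusted p = 0.0569) or PN library 2 (adjusted p = 0.0857), with a pseudocount of 0.1 (0.0738) and in the fit of MII and PN libraries alone (0.0549). In all 3 the groups did not overlap, with MII levels at a few RPKM or less. BTG4, with the values above, was lower in every PN embryo but did not pass (limma adjusted p = 0.35). CNOT7, a catalytic subunit of the deadenylase, had 180.4, 62.5 and 187 RPKM in PN, against 174, 229 and 128 RPKM in MII libraries, overlapping between groups (limma adjusted p = 0.827).

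Of 27 tested genes of mRNA storage, repression and cytoplasmic polyadenylation, 2 rose and 0 fell (7.41%; median log2 change 0.11). DDX6, an RNA helicase of repressed ribonucleoprotein particles, had 14.9, 11.4 and 7.38 RPKM in PN, against 1.28, 0.720 and 0.884 RPKM in MII libraries (log2 change 2.60, SE 0.50, limma adjusted p = 0.00364). All PN embryos were well above all MII oocytes, and the call held without each library. YBX2, the germ cell Y-box protein that coats maternal mRNA, had 17.1, 23.1 and 25.4 RPKM in PN, against 5.15, 2.25 and 7.62 RPKM in MII libraries (log2 change 2.02, SE 0.56, limma adjusted p = 0.0319). The YBX2 call ended in 5 of 6 leave-one-out fits, all but without MII library 3 (adjusted p 0.0503 to 0.152), with a pseudocount of 0.1 (0.115), without the filter on low values (0.0571), with median-of-ratios scaling (0.0817) and in the fit of MII and PN libraries alone (0.0576). The shares of both lists are close to the background of 7.66%.

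Among 52 tested genes of replication licensing and S phase, 4 rose and 1 fell (9.62%; median log2 change -0.09). MCM5, of the replicative helicase, had 5.67, 15.2 and 7.55 RPKM in PN, against 0.832, 0 and 0.955 RPKM in MII libraries, and MCM3 had 31.0, 61.6 and 38.9 RPKM in PN, against 17.5, 9.87 and 9.86 RPKM in MII libraries. Both were higher in each PN embryo, MCM5 with MII levels under 1 RPKM (log2 change 2.67, SE 0.54, limma adjusted p = 0.00505) and MCM3 with higher MII levels (log2 change 1.73, SE 0.39, limma adjusted p = 0.0103). The MCM3 call ended without MII library 3 (adjusted p = 0.0505) or PN library 2 (adjusted p = 0.0552) and in the fit of MII and PN libraries alone (0.0589). GINS2, of the helicase partner complex GINS, had 403, 662 and 508 RPKM in PN, against 117, 86.8 and 171 RPKM in MII libraries (log2 change 2.09, SE 0.53, limma adjusted p = 0.0213). The GINS2 call ended in 4 of 6 leave-one-out fits, all but without MII library 3 or PN library 1 (adjusted p 0.0579 to 0.0931). ORC2, of the origin recognition complex, had 3.88, 7.11 and 3.14 RPKM in PN, against 0.530, 1.34 and 1.20 RPKM in MII libraries (log2 change 1.46, SE 0.43, limma adjusted p = 0.0415). The ORC2 call ended without any 1 of the 6 libraries (adjusted p 0.0526 to 0.17), without the filter on low values (0.0572), with median-of-ratios scaling (0.118) and in the fit of MII and PN libraries alone (0.0728). The member that fell was LIG1 entry IMMRNTR6495, named for DNA ligase 1 in the deposited table, with 14.2, 27.2 and 7.46 RPKM in PN, against 79.3, 50.2 and 84.5 RPKM in MII libraries (log2 change -2.20, SE 0.43, limma adjusted p = 0.00397), alternating. The LIG1 call ended in the fit of MII and PN libraries alone (adjusted p = 0.0723). MCM2 had 30.6, 13.1 and 46.5 RPKM in PN, against 80.4, 88.9 and 54.6 RPKM in MII libraries, lower in each PN embryo, but did not pass (limma adjusted p = 0.153). PCNA, the sliding clamp, was abundant and lower in each PN embryo, with 3603, 3308 and 3644 RPKM in PN, against 5241, 5869.8 and 4729 RPKM in MII libraries, but did not pass (limma adjusted p = 0.321). CCNE1, cyclin E1 of S phase entry, had 59.5, 39.7 and 81.7 RPKM in PN, against 85.7, 113 and 67.9 RPKM in MII libraries, and did not pass (limma adjusted p = 0.717). GMNN, or geminin, which blocks licensing, had 438, 358 and 316 RPKM in PN, against 456, 392 and 644 RPKM in MII libraries, overlapping between groups (limma adjusted p = 0.667).

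Of 52 tested genes of sperm chromatin remodelling and parental methylation, 1 rose and 2 fell (5.77%; median log2 change 0.01). H1-8, the oocyte linker histone also called H1FOO (ENSMMUG00000012736, chr11:85265931-85274403), had 101, 140.3 and 193 RPKM in PN, against 876, 551 and 474 RPKM in MII libraries. Each PN embryo was below each MII oocyte (log2 change -2.12, SE 0.46, limma adjusted p = 0.00813). H1-8 is alternating. The H1-8 call ended without MII library 1 (adjusted p = 0.0537) and with a pseudocount of 0.1 (0.0502). DNMT1, the maintenance DNA methyltransferase (ENSMMUG00000014604, chr19:9936818-9976392), had 401, 326 and 456 RPKM in PN, against 1078, 1188 and 905 RPKM in MII libraries. The groups were well apart (log2 change -1.43, SE 0.38, limma adjusted p = 0.0256). The DNMT1 call ended in 5 of 6 leave-one-out fits, all but without PN library 3 (adjusted p 0.0517 to 0.0926) and with median-of-ratios scaling (0.093). CHAF1B, a subunit of the histone chaperone CAF-1, had 2.17, 2.62 and 0.782 RPKM in PN, against 0, 0 and 0 RPKM in MII libraries and is listed at 0 in all MII oocytes, so no fold is given (limma adjusted p = 0.0495). The CHAF1B call ended in 5 of 6 leave-one-out fits, all but without PN library 3 (adjusted p 0.121 to 0.173), without the filter on low values (0.0876), with median-of-ratios scaling (0.113), in the fit of MII and PN libraries alone (0.0596) and with plain moderation (0.0556). TET3, the dioxygenase that oxidises methylcytosine in the mouse paternal pronucleus, had 2.39, 4.45 and 3.51 RPKM in PN, against 1.69, 3.40 and 0.757 RPKM in MII libraries, overlapping between groups (limma adjusted p = 0.247). DPPA3, which protects maternal methylation in mouse zygotes, in entry IMMRNTR2887 had 9293, 4726 and 7576 RPKM in PN, against 10390.0, 9611 and 10416 RPKM in MII libraries, and NPM2, a histone chaperone that decondenses sperm chromatin in Xenopus eggs, had 36.2, 84.6 and 57.3 RPKM in PN, against 63.8, 50.5 and 47.3 RPKM in MII libraries. Neither passed (limma adjusted p = 0.55 and limma adjusted p = 1).

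**Figure D4:**
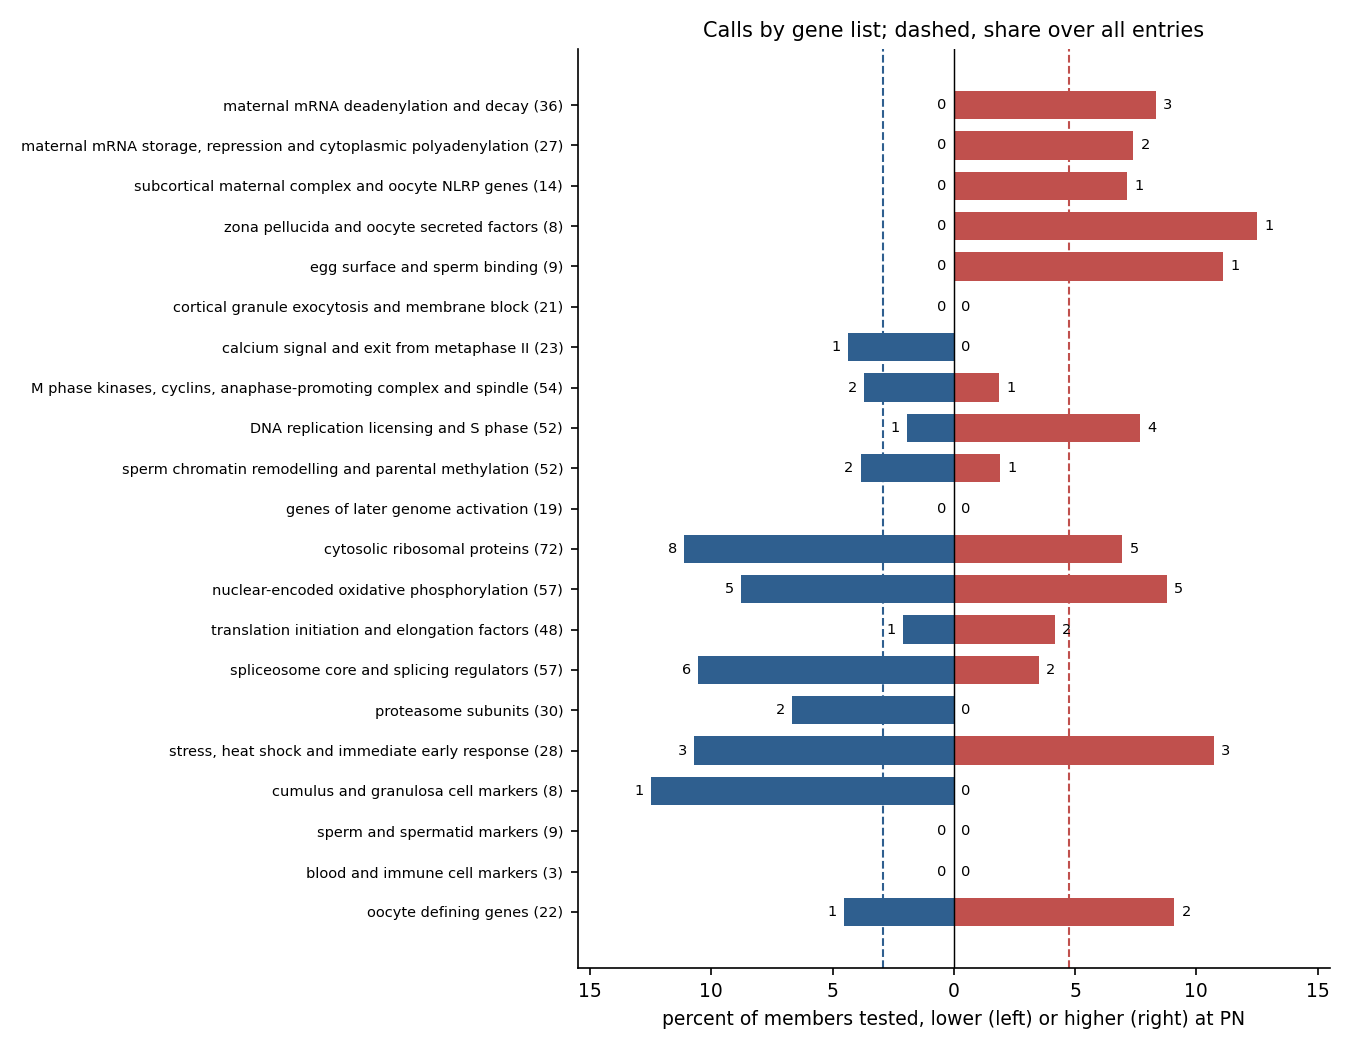
Percent of tested members called higher (right, red) and lower (left, blue) at PN for each of the 21 gene lists, with the number called at each bar and the number tested in brackets. Dashed lines mark the share over all 14312 tested entries, 4.76% higher and 2.91% lower; lists with few members move far with a single call.

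The genes of the protein synthesis machinery split in direction. Of 72 tested cytosolic ribosomal proteins, 5 rose and 8 fell (18.1%; median log2 change -0.42, against 0.06 over all entries). RPS3A, of the small subunit, in entry ENSMMUG00000002676 had 171, 150.3 and 229 RPKM in PN, against 14.8, 22.8 and 19.9 RPKM in MII libraries, higher in all PN embryos (log2 change 3.19, SE 0.37, limma adjusted p = 3.26e-05). RPL23, of the large subunit, had 196, 120.5 and 249.8 RPKM in PN, against 954, 969 and 1107 RPKM in MII libraries, lower in all PN embryos (log2 change -2.47, SE 0.33, limma adjusted p = 0.000144). RPS18 entry IMMRNTR2481, named in the deposited table, was near 0 at PN, with 0.293, 1.10 and 0.238 RPKM in PN, against 50.3, 67.2 and 57.0 RPKM in MII libraries (log2 change -5.29, SE 0.36, limma adjusted p = 5.71e-08). All 3 are alternating and were called without each library. RPS26 had 64.1, 78.4 and 81.3 RPKM in PN, against 435, 342 and 401 RPKM in MII libraries (log2 change -2.38, SE 0.51, limma adjusted p = 0.00748) and RPL9 had 46.0, 51.4 and 49.3 RPKM in PN, against 130.2, 157 and 169 RPKM in MII libraries (log2 change -1.61, SE 0.36, limma adjusted p = 0.00942), both lower in each PN embryo and not alternating. The remaining list members that rose were RPL8, RPL12, RPL19 and RPL31, and those that fell were RPL13, RPL14 entry IMMRNTR5332, RPL15 and RPL37. The calls of RPL19 and RPL15 held without each library, whereas those of RPL8, RPL12, RPL31, RPL13, RPL14 and RPL37 ended in 4 or 5 of the 6 leave-one-out fits.

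Ribosomal protein genes have many near-identical copies, and entries of a single symbol did not always move together. RPL19 entry ENSMMUG00000004235 (chr16:49275061-49279836) had 70.2, 136 and 64.2 RPKM in PN, against 4.38, 10.2 and 3.87 RPKM in MII libraries (log2 change 3.70, SE 0.41, limma adjusted p = 1.74e-05), while RPL19 entry ENSMMUG00000000294 had 0.145, 0.789 and 0.403 RPKM in PN, against 4.63, 3.11 and 7.54 RPKM in MII libraries and fell (limma adjusted p = 0.00611). Summed over all RPL19 entries the values were 84.6, 143 and 68.6 RPKM in PN libraries 1 to 3 against 28.9, 29.96 and 33.6 RPKM in MII libraries 1 to 3, so the sum was higher in each PN embryo. RPS29 entry ENSMMUG00000008939 had 60.2, 96.9 and 45.4 RPKM in PN, against 1.51, 3.32 and 2.87 RPKM in MII libraries (log2 change 4.23, SE 0.47, limma adjusted p = 2.16e-05). RPL32 entry ENSMMUG00000015130 had 1.55, 2.42 and 0.412 RPKM in PN, against 39.3, 32.2 and 36.5 RPKM in MII libraries (log2 change -4.00, SE 0.67, limma adjusted p = 0.00099), and RPL15 entry ENSMMUG00000021980 had 8.89, 48.9 and 4.49 RPKM in PN, against 272, 384 and 419 RPKM in MII libraries (log2 change -4.66, SE 0.66, limma adjusted p = 0.00023), with PN library 2 above the other PN embryos. The same RPL15 entry was at 177 and 345 RPKM in 2-cell libraries 1 and 2, and averaged 11.7 RPKM at 4-cell. The directions given here belong to the entries, and how reads were shared among copies is not given in the sources used here. The entries given for RPS29, RPS3A, RPL32 and RPL15 each span under 1000 bp. RPS29, RPS18, RPL32 and RPL15 each have a further entry of the same symbol, whose values are not given here. Of 1097 called entries 193 had a symbol with several tested entries. Among the other called genes described, CARHSP1, CDK5, DDX31, EIF4G3, LIG1, MRPL30, TXNIP and UBE2C also have further entries of the same symbol. Their changes too are those of the entry given.

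Of 48 tested translation factors 2 rose and 1 fell (6.25%). GSPT1, the release factor eRF3a, had 143, 108 and 126 RPKM in PN, against 28.8, 28.6 and 42.5 RPKM in MII libraries, higher in each PN embryo (log2 change 1.90, SE 0.44, limma adjusted p = 0.012). The GSPT1 call ended without MII library 1 (adjusted p = 0.0545). EEF1A1, the main elongation factor, had 429, 679 and 466 RPKM in PN, against 194, 172 and 243 RPKM in MII libraries (log2 change 1.35, SE 0.39, limma adjusted p = 0.0394). The EEF1A1 call ended without any 1 of the 6 libraries (adjusted p 0.057 to 0.15), without the filter on low values (0.0603) and with median-of-ratios scaling (0.0867). EIF4G3 entry IMMRNTR1690, an initiation scaffold by its deposited name, had 1.78, 1.36 and 1.74 RPKM in PN, against 7.48, 5.01 and 7.44 RPKM in MII libraries (log2 change -1.53, SE 0.43, limma adjusted p = 0.0352). The EIF4G3 call ended without any 1 of the 6 libraries (adjusted p 0.0535 to 0.114), with a pseudocount of 0.1 (0.12), without the filter on low values (0.0511) and with median-of-ratios scaling (0.109).

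Of 57 tested spliceosome and splicing genes 2 rose and 6 fell (14.0%; median log2 change -0.08). PRPF8, the core of the catalytic spliceosome, had 5.66, 15.6 and 10.5 RPKM in PN, against 0.635, 1.17 and 1.48 RPKM in MII libraries (log2 change 2.39, SE 0.45, limma adjusted p = 0.00267), and SNRPA1, of U2 snRNP, had 32.0, 38.8 and 30.1 RPKM in PN, against 6.05, 5.53 and 11.2 RPKM in MII libraries (log2 change 2.06, SE 0.47, limma adjusted p = 0.00995). Both were higher in each PN embryo. SNRPE, of the Sm ring, had 24.6, 25.6 and 15.9 RPKM in PN, against 254, 80.3 and 255 RPKM in MII libraries (log2 change -2.95, SE 0.55, limma adjusted p = 0.0028), SF3A3, of the U2 snRNP, had 72.5, 118 and 95.4 RPKM in PN, against 298, 242 and 280.4 RPKM in MII libraries (log2 change -1.53, SE 0.32, limma adjusted p = 0.00626), and HNRNPA2B1, a splicing regulator, had 9.44, 12.3 and 6.96 RPKM in PN, against 52.8, 22.4 and 55.4 RPKM in MII libraries (log2 change -2.0, SE 0.39, limma adjusted p = 0.00398). The HNRNPA2B1 call ended in the fit of MII and PN libraries alone (adjusted p = 0.064). SNRPF and HNRNPK also fell, but the SNRPF call ended in 6 and the HNRNPK call in 5 of the 6 leave-one-out fits. Of 30 proteasome genes none rose and 2 fell (6.67%; median log2 change 0.17). PSMA7 had 128, 204 and 153 RPKM in PN, against 511, 518 and 485 RPKM in MII libraries (log2 change -1.66, SE 0.41, limma adjusted p = 0.0181). The PSMA7 call ended in 5 of 6 leave-one-out fits, all but without PN library 2 (adjusted p 0.0506 to 0.0649) and with median-of-ratios scaling (0.0612). PSMA4 had 163, 214 and 209 RPKM in PN, against 542, 403 and 519 RPKM in MII libraries (log2 change -1.32, SE 0.38, limma adjusted p = 0.0404). The PSMA4 call ended without any 1 of the 6 libraries (adjusted p 0.0651 to 0.132), without the filter on low values (0.0573) and with median-of-ratios scaling (0.0731).

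Of 57 tested nuclear genes of oxidative phosphorylation 5 rose and 5 fell (17.5%; median log2 change 0.01). ATP5F1B, the catalytic beta subunit of ATP synthase, had 16.8, 21.3 and 15.6 RPKM in PN, against 4.13, 1.94 and 3.45 RPKM in MII libraries, higher in each PN embryo (log2 change 2.21, SE 0.45, limma adjusted p = 0.00485). UQCRB, of complex III, had 1.41, 0.896 and 1.63 RPKM in PN, against 17.5, 13.8 and 22.3 RPKM in MII libraries, lower in each PN embryo (log2 change -3.02, SE 0.40, limma adjusted p = 0.000121), and is alternating. NDUFC1, of complex I, had 5.59, 18.6 and 7.62 RPKM in PN, against 92.4, 45.0 and 214 RPKM in MII libraries (log2 change -3.23, SE 0.66, limma adjusted p = 0.00503). The NDUFC1 call ended in the fit of MII and PN libraries alone (adjusted p = 0.0689). The remaining members that rose were NDUFA9, NDUFB11, COX8A and ATP5F1A, and those that fell were NDUFB6, COX6C and COX7A2 entry IMMRNTR4994; each of these 7 calls ended in 2 to 6 of the 6 leave-one-out fits. Summed over the list RPKM overlapped between groups, at 2692, 4194 and 2366 in PN libraries 1 to 3 and 5205, 3815 and 6768 in MII libraries 1 to 3.

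Of 28 tested stress and immediate early genes 3 rose and 3 fell (21.4%; median log2 change -0.10). HSPA8, the constitutive HSC70 chaperone, had 198, 151 and 238 RPKM in PN, against 52.9, 36.0 and 53.5 RPKM in MII libraries, higher in each PN embryo (log2 change 2.02, SE 0.44, limma adjusted p = 0.00765). TXNIP, the inhibitor of thioredoxin, had 12.7, 17.2 and 5.25 RPKM in PN, against 0.688, 0.0200 and 1.07 RPKM in MII libraries (log2 change 2.93, SE 0.57, limma adjusted p = 0.00388). Both were called without each library. The inducible HSP70 gene HSPA1B went the other way, with 0.552, 0.702 and 1.20 RPKM in PN, against 7.26, 4.10 and 10.7 RPKM in MII libraries (log2 change -2.14, SE 0.54, limma adjusted p = 0.0195). The HSPA1B call ended in 4 of 6 leave-one-out fits, all but without MII library 2 or PN library 3 (adjusted p 0.0589 to 0.091) and with a pseudocount of 0.1 (0.0564). DNAJB1 also rose, and JUND and IER2 also fell, calls that ended in 4, 4 and 2 of the 6 leave-one-out fits for DNAJB1, JUND and IER2 in that order.

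Genes known from later genome activation stayed low. Of 36 listed genes 20 were matched by symbol and 16 were not, so the list was read only in part. None of 19 tested members was called by limma, with 1 at an unadjusted p under 0.05 and a median log2 change of 0.31. The log2 change was above 0 in 16 of the 19. DUXA had 0, 6.30 and 1.43 RPKM in PN, against 0, 0 and 0 RPKM in MII libraries, and ARGFX had 0, 6.86 and 0.954 RPKM in PN, against 0, 0 and 0 RPKM in MII libraries. These homeobox genes were at 0 in every MII oocyte and in PN library 1, and PN library 2 held most of the signal (limma adjusted p = 0.246 and limma adjusted p = 0.364). ZSCAN4, the zinc finger gene of early cleavage embryos, had 0.930, 4.58 and 0.199 RPKM in PN, against 0, 2.12 and 2.08 RPKM in MII libraries, and NANOG, the pluripotency factor, had 2.62, 4.34 and 3.87 RPKM in PN, against 1.19, 0 and 0.415 RPKM in MII libraries. ZSCAN4 overlapped between groups, and NANOG did not but missed the threshold (limma adjusted p = 0.996 and limma adjusted p = 0.0746).

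Set along the stages, the called entries did not follow a single course. The entries higher at PN had median stage levels of 3.50 RPKM at GV, 4.82 at MI, 0.844 at MII, 8.59 at PN, 4.14 at 2-cell, 5.03 at 4-cell and 2.50 at 8-cell. The entries lower at PN had 16.8 RPKM at GV, 8.82 at MI, 18.0 at MII, 2.38 at PN, 4.31 at 2-cell, 2.26 at 4-cell and 2.96 at 8-cell. MII and PN levels chose these entries, so the low or high at MII and PN is no finding, and levels between these at other stages follow in part from that choice. Over all tested entries the medians were 3.11 RPKM at GV, 2.67 at MI, 1.84 at MII, 2.55 at PN, 1.85 at 2-cell, 1.74 at 4-cell and 2.46 at 8-cell. GSPT1 was lowest at MII among the stages up to 4-cell, with means of 123 RPKM at GV, 110 at MI, 33.3 at MII, 126 at PN, 103 at 2-cell and 134 at 4-cell. PDCD5 kept a lower level after PN, with means of 1672 RPKM at GV, 1732 at MI, 3022 at MII, 100 at PN and 189 at 2-cell.

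**Figure D5:**
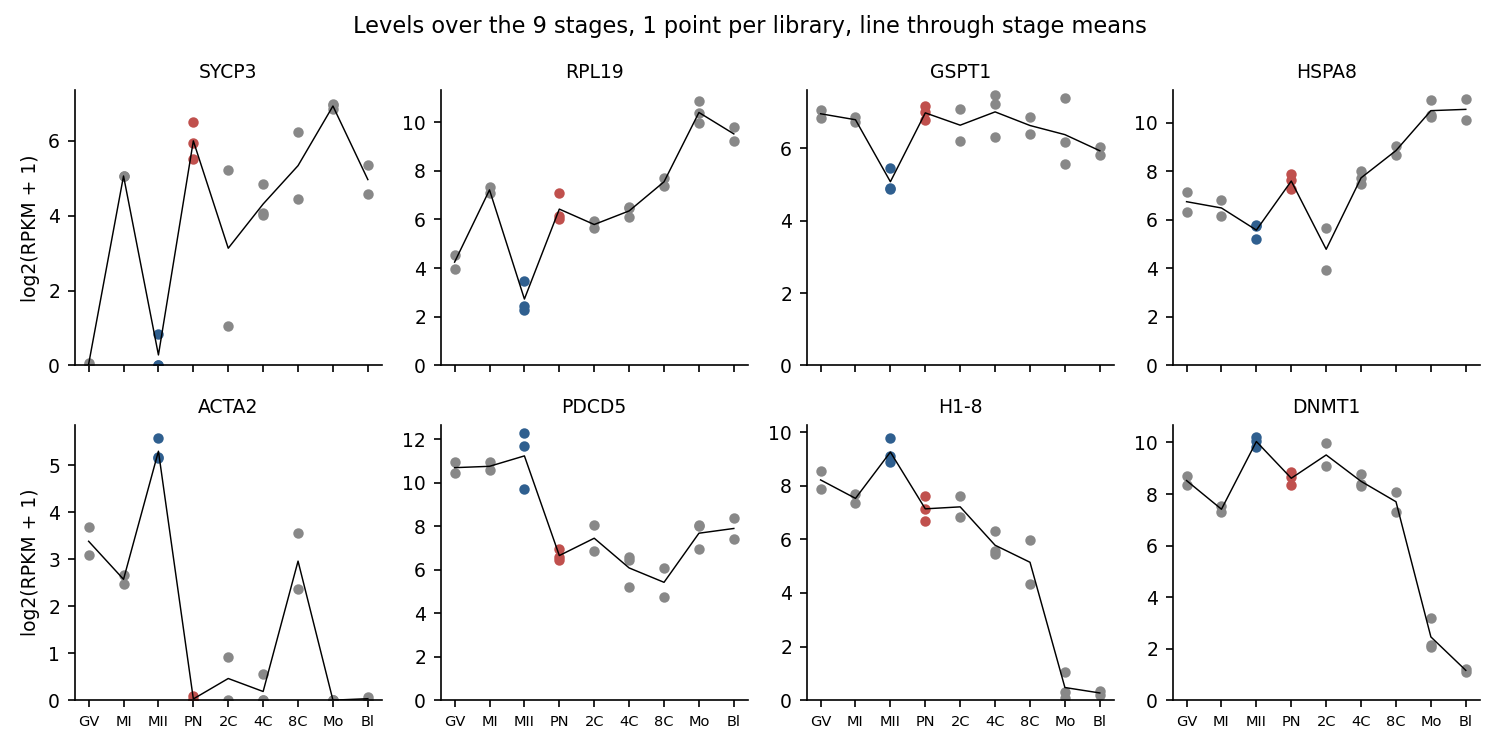
Log2(RPKM + 1) of 8 genes over the 9 stages from GV oocyte to blastocyst (Bl), 1 point per library, MII in blue, PN in red and the other stages in grey, with a line through the stage means. SYCP3 and RPL19 are low at GV and MII and high at MI and PN, GSPT1 dips at MII, and PDCD5 and H1-8 are lower from PN through the 8-cell stage.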

How the data were processed

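The authors deposited their expression values as RPKM, 35468 entries for 22 libraries, whose columns match the sample titles. Genome build Mmul_8.0.1 is given in the submitters' processing notes; the aligner, the counting program and the annotation are not given in the sources used here. Of the entries 28595 have ENSMMUG and 6873 IMMRNTR identifiers; symbols of the ENSMMUG entries came from a gene name table for 15556, from the deposited table for 6047, and were absent for 6992. Coordinates are as deposited.

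RPKM was taken to log2(RPKM + 1) with no further scaling. Entries at 1 RPKM or more in at least 2 of the 22 libraries were kept. limma 3.58.1 in R 4.3.3 fitted 1 mean per stage over all 22 libraries, with trend and robust moderation, and tested PN minus MII, 2-sided, with Benjamini-Hochberg adjustment; adjusted p under 0.05 is a call. log2 values and fold changes are on this scale, which understates the change of low genes. A value of 0 means listed at 0. Depth was estimated from entries spanning under 400 bp, as the number of reads at which values worth under 30 reads were most often whole within 0.05; 79.9% to 86.7% were.

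Named genes are ENSMMUG entries with a symbol, called, not overlapping and at 10 RPKM or more in the higher stage, 12 in each direction; up to 3 called members of lists with 2 or more calls; and a fixed panel of 36, of which WEE2, IZUMO1R, ASTL and H3F3A were not matched and HIRA was under the filter. Other genes were named after their values were seen. The lists' counts include 2 called members that are not reported here. The comparison and the lists were chosen with earlier results of these data known. The alternatives were another pseudocount, filter, scaling, moderation or set of libraries, the replicate number as a block, and leaving out each library.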

Additional observations from a re-analysis of the deposited data

How the results depend on the processing

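With median-of-ratios scaling 719 entries were called, 417 of them higher at PN, and with a pseudocount of 0.1 the lower calls were 276. Leaving out each PN or MII library gave 582 to 907 calls, 352 to 631 higher and 230 to 339 lower; the range reached 1664, 976 and 688 without morula library 2. With no filter 860 were called, with a filter of 5 RPKM 929, with plain moderation 1187, and with only the PN and MII libraries 915, of which 566 were among the 1097. No called gene named by the rule changed the sign of its log2 change under any alternative run.

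The replicate numbers are not stated to pair the libraries. Deviations of same-numbered PN and MII libraries correlated at -0.005, -0.066 and -0.067, and those of other pairs at -0.049 to 0.084. Such values cannot show whether same-numbered libraries share an animal or a batch. With the number as a replicate block 1003 entries were called over all 22 libraries, 629 higher and 374 lower; of the genes named, the calls of CHAF1B, PSMA4, NDUFB11 and ORC2 ended there (adjusted p 0.0581 to 0.0618). It was 0 when only PN and MII libraries entered (0 higher, 0 lower, limma; 2859 at an unadjusted p under 0.05), where few residual degrees of freedom remain.

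Entries switched on at PN were 3 with limits of 0.1 and 1 RPKM and 2 with limits of 1 and 5 RPKM, and 9 to 12 without 1 PN library; entries switched off were 10 with limits of 1 and 5 RPKM and 43 to 52 without 1 PN library. Fewer required libraries make such a count larger by construction. The excess of entries at 1 RPKM in PN embryos kept its direction at 0.5 and 5 RPKM. Depth limits low values: at an estimated 7280000 reads in PN library 2, entries near 1 RPKM rest on few reads. The cause of the other shifts was not tested.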

Other observations

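Single genes outside the lists are given here, picked after their values were seen. MAP1LC3B, like MAP1LC3C a gene of the autophagosome protein LC3, had 38.3, 46.6 and 59.4 RPKM in PN, against 6.20, 4.15 and 2.83 RPKM in MII libraries (log2 change 3.21, SE 0.64, limma adjusted p = 0.00448). PN embryos were several times above MII oocytes in both LC3 genes. FTH1, the ferritin heavy chain, in entry ENSMMUG00000015146 had 26.5, 156 and 50.2 RPKM in PN, against 3.10, 6.72 and 6.79 RPKM in MII libraries (log2 change 3.27, SE 0.63, limma adjusted p = 0.00369), with PN library 2 highest. The FTH1 call ended in the fit of MII and PN libraries alone (adjusted p = 0.067). MTOR, the kinase that holds autophagy down, was also higher, with 9.23, 18.9 and 12.4 RPKM in PN, against 1.82, 3.83 and 1.64 RPKM in MII libraries (log2 change 2.08, SE 0.52, limma adjusted p = 0.0192). The MTOR call ended without MII library 1 (adjusted p = 0.0748) or MII library 3 (adjusted p = 0.0784) or PN library 2 (adjusted p = 0.0859), with a pseudocount of 0.1 (0.0534) and with median-of-ratios scaling (0.0715). SQSTM1, an autophagy receptor, had 3.90, 20.3 and 5.95 RPKM in PN, against 5.47, 4.54 and 5.63 RPKM in MII libraries and did not pass (limma adjusted p = 0.639).

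Genes of varied function were picked in the same way. PCBP1, a poly(C)-binding protein, had 455, 273 and 476 RPKM in PN, against 41.0, 44.5 and 35.2 RPKM in MII libraries (log2 change 3.25, SE 0.41, limma adjusted p = 8.52e-05), and CYP2R1, a vitamin D 25-hydroxylase, had 173, 228 and 176 RPKM in PN, against 20.5, 21.2 and 24.3 RPKM in MII libraries (log2 change 3.07, SE 0.47, limma adjusted p = 0.000428). GDI2, which recycles Rab GTPases, had 468, 460.2 and 557 RPKM in PN, against 116, 127 and 90.1 RPKM in MII libraries (log2 change 2.15, SE 0.37, limma adjusted p = 0.00117), and PRDX2, a peroxiredoxin, had 87.2, 141 and 105 RPKM in PN, against 10.1, 9.77 and 31.7 RPKM in MII libraries (log2 change 2.80, SE 0.52, limma adjusted p = 0.00257). In these 4 genes each PN embryo was above each MII oocyte, and each call held without any 1 library. PCBP1 and GDI2 are alternating, as are NFKBIA and SRP19 below. Among decreases, NFKBIA, the inhibitor of NF-kappa-B, had 64.5, 62.6 and 72.7 RPKM in PN, against 482, 331 and 383 RPKM in MII libraries (log2 change -2.55, SE 0.45, limma adjusted p = 0.00175), and PARP1, a poly(ADP-ribose) polymerase, had 9.89, 5.50 and 12.2 RPKM in PN, against 50.8, 48.4 and 39.97 RPKM in MII libraries (log2 change -2.27, SE 0.45, limma adjusted p = 0.0045). HPF1, which redirects PARP1 to serine, had 137, 68.3 and 96.6 RPKM in PN, against 1481, 227 and 1105 RPKM in MII libraries (log2 change -2.88, SE 0.65, limma adjusted p = 0.00955). The HPF1 call ended without MII library 1 (adjusted p = 0.0659) or MII library 3 (adjusted p = 0.0516) and in the fit of MII and PN libraries alone (0.106). SRP19, of the signal recognition particle, had 332, 415 and 274 RPKM in PN, against 1836, 1508 and 1971 RPKM in MII libraries (log2 change -2.39, SE 0.50, limma adjusted p = 0.00631).

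Of 416 tested genes whose symbols start with ZNF, 25 were higher and 9 lower at PN (8.17%, near the background of 7.66%). Chromosome 19, where many zinc finger genes lie, held 9.69% of the entries higher at PN, 4.81% of those lower and 5.78% of all tested entries.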
